A study of Homo sapiens with 22 samples.

Results

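The 10 genes described here belong to insulin and PI3K signalling and to its FOXO branch: IRS1, IRS2, INSR, IGF1R, PIK3IP1, FOXO1, FOXO3, SESN1, SESN3 and TXNIP. They were chosen by symbol, and all 10 were found among the 33538 genes of the first single-cell count table and among the 36601 genes of each of the other 2. The tables hold human melanoma cell lines profiled with 10x 3' single-cell RNA-seq, in which a count is a UMI, 1 tagged RNA molecule. The first holds untreated, barcoded WM989 cells in 8 chip wells of 1 sample, the second untreated WM983B cells in 1 library, and the third barcoded WM989 cells in 8 libraries, 2 replicates (r1 and r2) of each of Control, PI3Ki, TGFB1 and TGFBRi. The sample labels call the 2 libraries of each treatment Mix and Primed. They do not say which of these is r1, or whether the 2 differ in the cells they started from. Both lines are clones grown from single cells. WM989 carries a mutated BRAF, and Control was left untreated, PI3Ki received a PI3K inhibitor (GDC-0941), TGFB1 the cytokine TGF-β1, and TGFBRi an inhibitor of TGF-β receptors (LY2109761). By the study's methods these cells were harvested only at the end of several days of treatment, so earlier responses were not measured. Chromatin was profiled by ATAC-seq in sorted WM989 cells labelled Mix, EGFR_High, NGFR-High and EGFR-NGFR-High, with 3 libraries each. The study's methods describe the sort without high markers as negative for both EGFR and NGFR, while the labels call it Mix, so it cannot be told here whether the reference was a mixed or a negative population. Cells carry the deposited labels drug-susceptible and primed, the primed cells being those that more often give rise to resistance to BRAF and MEK inhibitors.

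Insulin and IGF receptors, encoded by INSR and IGF1R, phosphorylate the adapters IRS1 and IRS2, which recruit PI3K. PI3K then activates AKT, which holds the FOXO transcription factors out of the nucleus, and when the pathway is blocked FOXO enters the nucleus and can raise the transcription of the receptors and IRS2. This feedback is well known from other cells. PIK3IP1 encodes an inhibitor of the PI3K catalytic subunit, SESN1 and SESN3 encode sestrins, stress proteins that restrain TOR complex 1, and TXNIP encodes an arrestin-like protein that restrains glucose uptake and is controlled by the MondoA factor as well as by FOXO.

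The treated experiment held 40021 cells, with 3692 to 6273 cells and 70239657 to 122420544 UMIs a library, and 194 of its 39827 cell barcodes occurred in more than 1 library. The share of primed cells was 2.26% and 4.47% in Control, 0.647% and 1.21% under PI3Ki, 29.1% and 31.3% under TGFB1, and 2.26% and 4.32% under TGFBRi. The share of cells in G1 was 34.0% and 32.7% in Control, 43.6% and 44.1% under PI3Ki, and 44.1% in both TGFB1 libraries. The melanocytic genes SOX10 and PMEL were expressed in all 3 experiments, while KRT5 of epidermis was at 0 UMIs in each and PTPRC of blood cells lay between 0.0506 and 0.136 CPM, where CPM is the count scaled to the same total in every library. Other genes of that list were present: CD68 lay between 37.5 and 56.8 CPM and LUM between 25.1 and 92.0 CPM in the 3 experiments, and PDGFRA was at 12.7 CPM in untreated WM989; their part in the results was not tested. Levels below are CPM of counts summed over the cells of a library, and since a sum over all cells mixes the states, the same values are given within each state. The 8 libraries came from wells of cells split over 4 plates, and the fit has a term for replicate. A p-value therefore rests on how far differences between treatments vary between the 2 replicates, with a spread estimated over all 8 libraries. The spread of each gene was also moderated towards that of the other genes, so a p-value does not rest on the gene's own replicates alone.

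PI3Ki changed 2 of the 10 genes in all cells: TXNIP rose and IRS1 fell. Of all 18389 genes tested, 5.83% were called higher and 6.83% lower. TXNIP was at 32.2 and 40.9 CPM in the Control libraries (r1 and r2) and at 67.0 and 58.2 CPM under PI3Ki. Both PI3Ki libraries lay above both Control libraries, and the log2 fold change was 0.88 (SE 0.084, edgeR adjusted p = 2.59e-07). IRS1 was at 3.53 and 4.59 CPM in Control and at 1.61 and 2.295 CPM under PI3Ki, on 276 and 368 UMIs against 113 and 281. The IRS1 groups did not overlap either, the log2 fold change being -0.93 (SE 0.13, edgeR adjusted p = 3.88e-05).

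The 250 bases before the start site of these 2 genes are shown because their RNA changed under PI3Ki; they come from RefSeq on GRCh38.p14, read on the strand of the gene, and capitals mark the forkhead core GTAAACA. This motif, the E-box CACGTG and the AP-1 site TGAGTCA were searched on both strands, and among 35116 promoters of the same length 2.98% held the first, 6.34% the second and 4.20% the third. TXNIP, on chromosome 1 from 145992435 to 145996579 on the minus strand, holds 1 forkhead core 124 bases before its start, on the coding strand. IRS1, on chromosome 2 from 226731312 to 226799820 on the minus strand, holds none of the 3 motifs in this window.
TXNIP, chr1:145996580-145996829: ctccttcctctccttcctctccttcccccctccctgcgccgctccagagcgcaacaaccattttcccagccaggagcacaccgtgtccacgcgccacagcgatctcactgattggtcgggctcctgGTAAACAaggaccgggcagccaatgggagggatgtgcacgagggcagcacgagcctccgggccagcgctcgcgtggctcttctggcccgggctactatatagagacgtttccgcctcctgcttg
IRS1, chr2:226799821-226800070: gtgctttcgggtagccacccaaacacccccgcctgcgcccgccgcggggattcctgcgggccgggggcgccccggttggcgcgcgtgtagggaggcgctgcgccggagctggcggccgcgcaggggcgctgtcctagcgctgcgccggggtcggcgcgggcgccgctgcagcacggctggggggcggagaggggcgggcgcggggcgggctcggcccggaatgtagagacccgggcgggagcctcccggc
These windows end at the annotated start, and a match of letters says nothing of binding. Only the exact letters of the motifs above were searched, so unmarked bases can hold other sites, such as sites of MondoA.

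**Figure D1:**
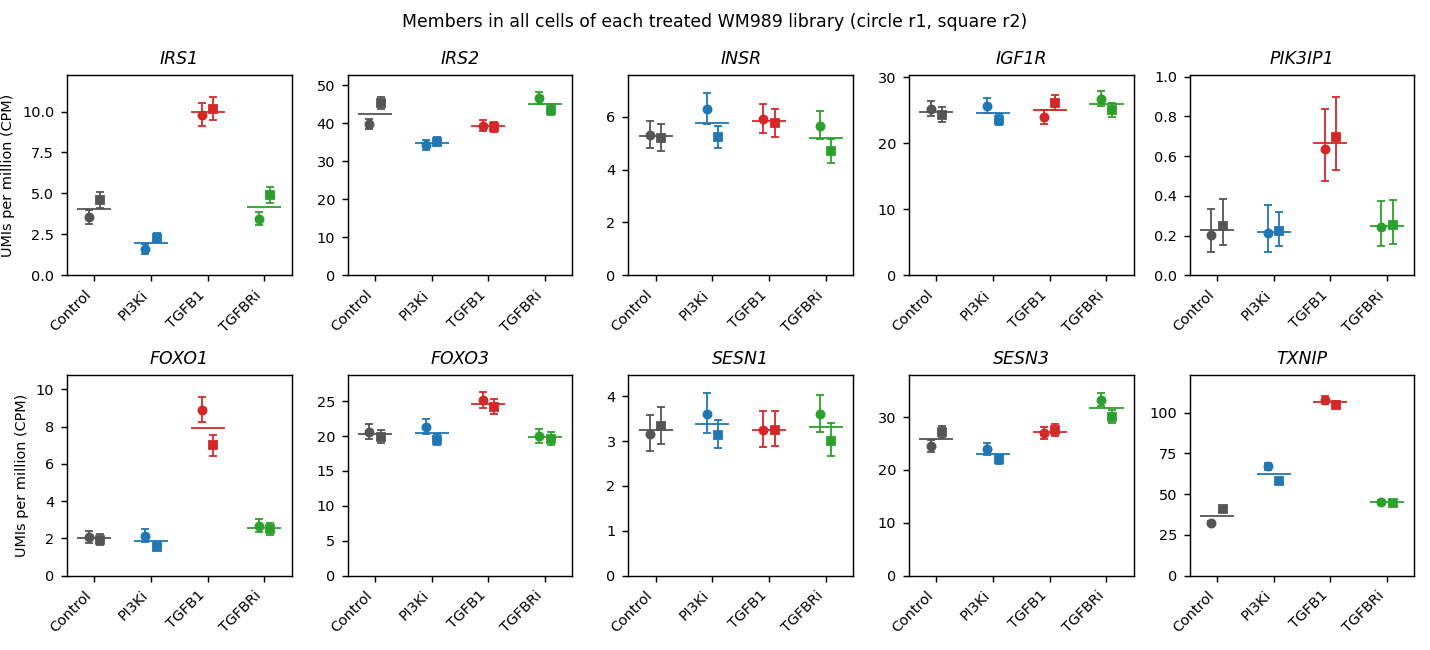
Level of each of the 10 genes in all cells of each treated WM989 library, as CPM on linear axes from 0, with exact 95% Poisson intervals of the counts and the mean of each pair as a line; circles are r1 and squares r2. TXNIP lay above Control in both PI3Ki and both TGFB1 libraries, while IRS1 lay below Control under PI3Ki and above it under TGFB1.

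The receptors and the second adapter did not pass the test under PI3Ki. IRS2 was at 39.8 and 45.3 CPM in Control and at 34.2 and 35.2 CPM under PI3Ki. Its groups did not overlap in CPM, a scaling by library size alone. The log2 fold change of -0.19 (SE 0.07) had an edgeR adjusted p of 0.0812. INSR was at 5.31 and 5.21 CPM against 6.29 and 5.23 CPM, with a log2 fold change of 0.22 (edgeR adjusted p = 0.125). IGF1R was at 25.2 and 24.3 CPM against 25.7 and 23.6 CPM, and the groups overlapped (log2 fold change 0.09, edgeR adjusted p = 0.44). IRS2 passed in a fit of only the 2 treatments (-0.19, edgeR adjusted p = 0.0021). This fit has fewer residual degrees of freedom and called 1973 genes higher and 2220 lower, beside 1072 and 1256 in the main fit. IRS2 also passed with libraries scaled by size alone (-0.29, edgeR adjusted p = 0.00256), which shifts the median of all genes by -0.10. With that scaling 560 genes were called higher and 2963 lower. INSR passed in G1 cells alone (0.55, edgeR adjusted p = 0.00839), where 931 genes were called higher and 1012 lower.

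The FOXO factors and the sestrins did not pass the test under PI3Ki either. FOXO1 was at 2.07 and 1.92 CPM in Control and at 2.12 and 1.56 CPM under PI3Ki, and FOXO3 at 20.6 and 19.9 CPM against 21.3 and 19.5 CPM. SESN3 was at 24.6 and 27.2 CPM against 23.9 and 22.0 CPM, with a log2 fold change of -0.07 (edgeR adjusted p = 0.578). SESN1 (0.15), FOXO3 (0.11) and FOXO1 (-0.04) gave log2 fold changes with edgeR adjusted p-values from 0.328 to 0.903. PIK3IP1 was sparse, with 16 and 20 UMIs in Control and 15 and 27 under PI3Ki, and its SE of 0.321 on the log2 scale leaves a change of that size undetectable at this depth.

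The changes of TXNIP and IRS1 under PI3Ki were also seen among drug-susceptible cells alone, in which 5.89% of 17914 genes were called higher and 6.22% lower. TXNIP was at 31.1 and 38.9 CPM in Control against 66.9 and 57.5 CPM under PI3Ki (log2 fold change 0.92, SE 0.085, edgeR adjusted p = 7.46e-08). IRS1 was at 3.19 and 4.0 CPM against 1.57 and 2.15 CPM (log2 fold change -0.82, SE 0.135, edgeR adjusted p = 0.000211). For both genes the groups stood apart in these cells as they did in all cells, and none of the other 8 genes passed. Markers of the states moved within drug-susceptible cells too: NGFR (log2 fold change -1.67), EGFR (-0.96) and NT5E (-0.40) fell, AXL at -1.07 did not pass (edgeR adjusted p = 0.0618), and PMEL, TYR, S100B and MLANA rose. The part of this in the values of IRS1 and TXNIP was not tested.

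Among primed cells, of which the PI3Ki libraries held only 25 and 70, no gene of the 10 was called, against 0.467% of 10930 genes called higher and 1.32% lower. TXNIP was at 91.7 and 103 CPM in primed Control cells and at 109 and 138 CPM in primed PI3Ki cells (log2 fold change 0.33, edgeR adjusted p = 0.503). IRS1 was at 23.1 and 22.9 CPM against 10.5 and 20.7 CPM, the PI3Ki values resting on 3 and 20 UMIs (log2 fold change -0.42, edgeR adjusted p = 0.758). PIK3IP1 and SESN1 were too low to be tested in these cells, and IGF1R had the only unadjusted p under 0.05 (log2 fold change 0.64, edgeR adjusted p = 0.319). The PI3Ki effect on TXNIP in primed minus drug-susceptible cells was -0.50 (SE 0.163, edgeR adjusted p = 0.116), so a difference between the states was not shown.

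**Figure D2:**
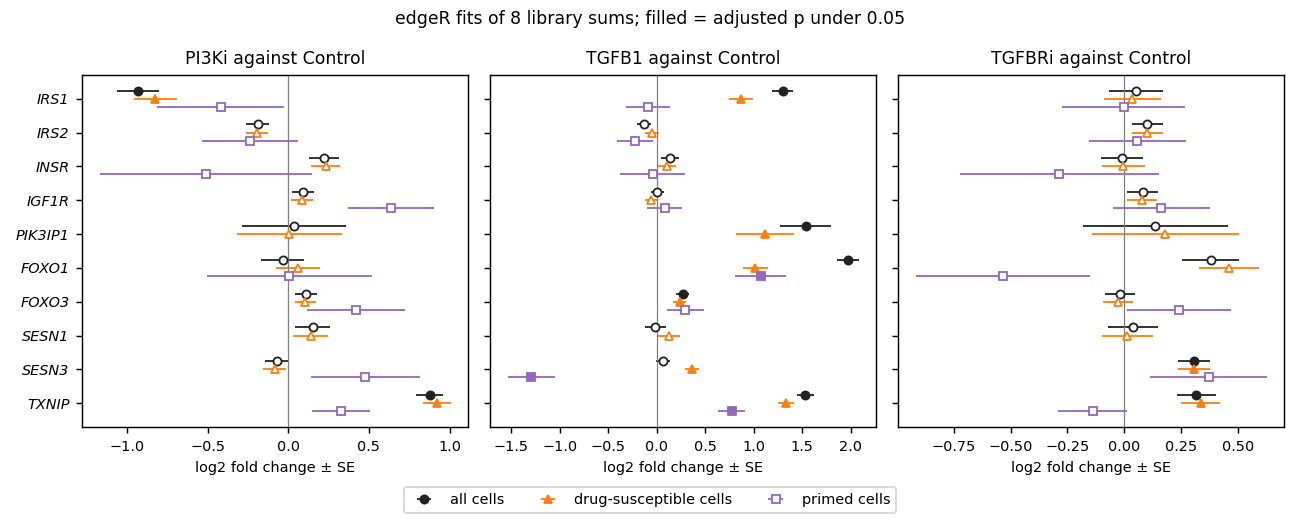
Log2 fold change of each gene against Control, with its SE, from edgeR fits of the 8 library sums, for all cells (circles), drug-susceptible cells (triangles) and primed cells (squares); filled symbols have an adjusted p under 0.05 and x axes differ between panels. Under PI3Ki the filled symbols are those of TXNIP, to the right of 0, and IRS1, to the left, in all and in drug-susceptible cells.

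The deposited clusters divide the cells further, and 7 of them held at least 50 cells in each of the 2 Control and 2 PI3Ki libraries. TXNIP lay higher in both PI3Ki libraries than in both Control libraries in 7 of these 7 clusters, as did 0.5% of all genes tested. IRS1 was lower than in the Control library of the same replicate in both replicates in 6 of 7, and without overlap in 5. IRS2, not called over all cells, was also lower in both replicates in 6 of 7. The share of all genes with that count was not taken. SESN3, not called over all cells, was also lower without overlap in 5 of 7, as were 9.08% of all genes tested in at least 5. IRS2 was so in 4 of 7, beside 15.7% of genes in at least 4. Levels within clusters were scaled by library size alone. Over all cells that scaling shifted the median of all genes by -0.10 under PI3Ki, so counts of lower values lean downward. Cluster 6 is not among the 7, since it held 39 cells of Control r2. It held 28.6% and 19.6% of the PI3Ki cells (1104 and 1135) and 3.11% and 1.06% of the Control cells, so the cells of the 2 treatments also lie in different clusters. Within cluster 6 TXNIP was at 78.2 and 81.6 CPM in Control and at 81.9 and 76.5 CPM under PI3Ki, and the groups overlapped. IRS1, on 3 and 1 UMIs in Control, was at 1.38 and 1.24 CPM against 1.20 and 2.09 CPM and overlapped as well. Clusters were made from these counts and share the libraries, so they are not independent replicates.

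**Figure D3:**
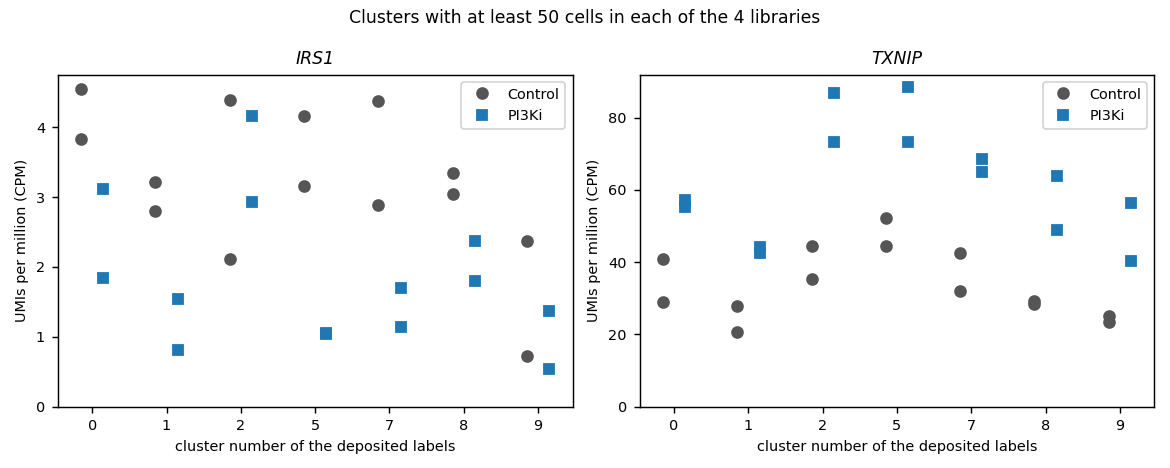
Level of IRS1 (left) and TXNIP (right) in the 2 Control and 2 PI3Ki libraries within each of the 7 clusters with at least 50 cells in all 4 libraries, in CPM. The PI3Ki squares of TXNIP lie above the Control circles in all 7 clusters, while those of IRS1 overlap Control in clusters 2 and 9.

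Most of the other tested genes of the pathway did not pass the test under PI3Ki, and those that did went in both directions. Of 13 tested genes for ligands, binding proteins and adapters, 2 rose (GAB2 by 0.30 and SH2B2 by 0.29 on the log2 scale) and 2 fell (GRB14 -0.41 and GRB10 -0.26), beside 5.83% and 6.83% of all genes. Of 30 tested genes of the PI3K, AKT and TOR core, 2 rose and 3 fell. DDIT4, which encodes an inhibitor of TOR complex 1, went from 150 and 157 CPM in Control to 53.2 and 51.4 CPM (log2 fold change -1.45, edgeR adjusted p = 1.55e-12). DEPTOR, another TOR inhibitor, went the other way from 0.295 and 0.299 CPM to 0.555 and 0.515 CPM (log2 fold change 0.95, edgeR adjusted p = 0.0204). The median log2 fold changes of these lists were -0.16 and 0.00, beside 0.00 over all genes tested.

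Of 24 tested FOXO factors and targets other than the 10 genes, 4 rose and 5 fell, beside 5.83% and 6.83% of all genes, with a median of -0.02. ERBB3, a receptor of the EGFR family, rose (log2 fold change 0.57), as did YPEL3 (0.47). BNIP3, a mitophagy receptor also induced by hypoxia, fell from 205 and 246 CPM to 71.7 and 82.1 CPM (log2 fold change -1.45, edgeR adjusted p = 1.55e-12). CDKN1A, a cell cycle inhibitor, fell from 1.87 and 1.96 CPM to 0.897 and 0.948 CPM (log2 fold change -0.95, edgeR adjusted p = 0.000138). In drug-susceptible cells alone the counts of this list were 3 higher and 3 lower, beside 5.89% and 6.22% of all genes. CDKN1A was not called there, while ERBB3, YPEL3 and BNIP3 kept their calls.

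Among 10 tested relatives of TXNIP, genes of the thioredoxin system and genes of the MondoA system, 2 rose and 1 fell. The shares of all genes beside this and the next lists are again 5.83% and 6.83%. ARRDC4, an arrestin-like relative of TXNIP, rose from 1.95 and 2.82 CPM to 3.16 and 3.01 CPM (log2 fold change 0.47, edgeR adjusted p = 0.0186), and TXNRD1, a thioredoxin reductase, by 0.21. ARRDC3 fell (-0.38, edgeR adjusted p = 0.0451). In drug-susceptible cells alone ARRDC4 and TXNRD1 kept their calls and ARRDC3 did not, beside 5.89% of all genes higher and 6.22% lower. Of 11 tested p53 targets other than sestrins, TP53I3 rose by 0.43 and GDF15 and PHLDA3 fell, both at -0.27. Of the 4 primed markers all fell (NGFR -2.51, AXL -2.23, EGFR -0.93 and NT5E -0.49), 4 of 8 melanocytic markers rose (PMEL, TYR, S100B and MLANA) and DCT fell, and of 7 tested markers of other cell types only LUM passed, at -0.41. The share of primed cells and of G1 cells moved with PI3Ki as given above, and its part in these changes was not tested beyond the values within drug-susceptible cells.

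TGFB1 raised 5 of the 10 genes over all cells and lowered none; 16.3% of all genes tested were called higher and 12.7% lower. FOXO1 was at 2.07 and 1.92 CPM in Control and at 8.89 and 6.99 CPM under TGFB1 (log2 fold change 1.97, SE 0.111, edgeR adjusted p = 3.92e-12). TXNIP reached 108 and 105 CPM (log2 fold change 1.53, edgeR adjusted p = 2.87e-12), above both PI3Ki libraries. IRS1 was at 9.81 and 10.2 CPM (log2 fold change 1.30, SE 0.11, edgeR adjusted p = 3.79e-09), so it lay above Control here and below it under PI3Ki.
PIK3IP1 rose from 0.205 and 0.249 CPM to 0.638 and 0.696 CPM on 51 and 59 UMIs (log2 fold change 1.53, edgeR adjusted p = 9.28e-05). FOXO3 rose from 20.6 and 19.9 CPM to 25.1 and 24.2 CPM (log2 fold change 0.27, edgeR adjusted p = 0.00333); without Control r1 or without Control r2 its adjusted p was 0.0539 and 0.0585. The other 5 genes, IRS2, INSR, IGF1R, SESN1 and SESN3, had log2 fold changes between -0.13 and 0.14 without a call. INSR passed in G1 cells alone (0.58, edgeR adjusted p = 0.0021) and IRS2 in a fit of only the 2 treatments (-0.14, edgeR adjusted p = 0.043). The G1 fit called 2723 genes higher and 2298 lower. The fit of only the 2 treatments called 3470 and 3255, beside 2990 and 2334 in the main fit. IGF1R, not called over all cells, was lower without overlap in 6 of 8 clusters, beside 2.48% of all genes tested. Of the 4 primed markers AXL, EGFR and NT5E rose over all cells, and 4 of 8 melanocytic markers fell (DCT, MLANA, MITF and PMEL). Of 7 tested markers of other cell types PECAM1 and PDGFRA rose. The part of these shifts in the values above was not tested.

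Since TGFB1 libraries held many more primed cells, the same comparison was made within drug-susceptible cells, where 8.56% of genes were called higher and 6.32% lower. TXNIP (log2 fold change 1.33), FOXO1 (1.01), IRS1 (0.87) and SESN3 (0.36) passed, as did PIK3IP1 (1.12) and FOXO3 (0.24). FOXO1 was at 1.88 and 1.74 CPM in drug-susceptible Control cells and at 3.93 and 3.44 CPM under TGFB1, and IRS1 at 3.19 and 4.0 CPM against 6.85 and 6.34 CPM. The groups of both genes stood apart, by less than over all cells. Markers moved in these cells too: of the 4 primed markers AXL rose (3.03), and of 8 melanocytic markers TYR (0.37) and S100B (0.32) rose while DCT (-0.56) and MLANA (-0.44) fell. Their part in the values of the 10 genes was not tested. Drug-susceptible cells of the 2 treatments also lie in different clusters: cluster 3 holds 2182 and 1619 TGFB1 cells and 56 and 59 Control cells. Within cluster 3 IRS1 was at 6.95 and 12.8 CPM in Control and at 9.81 and 9.30 CPM under TGFB1, and SESN3 at 24.3 and 39.4 CPM against 36.7 and 38.6 CPM, so both overlapped. TXNIP was at 99.7 and 96.5 CPM there against 105 and 110 CPM, and FOXO1, on 4 UMIs in each Control library, at 4.64 and 3.94 CPM against 5.51 and 5.60 CPM. Over the 8 clusters with at least 50 cells in each of the 4 libraries, which include cluster 3, TXNIP lay above Control without overlap in 8 and FOXO1 in 6, as did 0.712% and 3.73% of all genes tested in at least as many. IRS1 and SESN3 did so in 4 each, beside 12.8%. In cluster 1 TXNIP went from 20.7 and 27.8 CPM to 65.5 and 55.7 CPM, a wider gap than in cluster 3. PIK3IP1 lost its call whichever of the 4 libraries was left out and with DESeq2, FOXO3 whichever was left out and without the replicate block, and SESN3 without Control r1 (edgeR adjusted p = 0.103).

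Within primed cells, where 6.21% of genes were called higher and 7.09% lower, FOXO1 (log2 fold change 1.07, edgeR adjusted p = 0.00277) and TXNIP (0.77, edgeR adjusted p = 3.84e-05) were higher under TGFB1 and SESN3 was lower (-1.30, edgeR adjusted p = 9.43e-05). SESN3 was at 22.4 and 23.3 CPM in primed Control cells and at 7.61 and 10.1 CPM in primed TGFB1 cells. IRS1 was at 23.1 and 22.9 CPM against 18.6 and 20.9 CPM, without a call. Of 7 tested melanocytic markers 6 fell here (S100B by 1.60 and SOX10 by 1.04 on the log2 scale, and MLANA, DCT, MITF and PMEL), and of the 4 primed markers EGFR (0.89) and AXL (0.83) rose while NGFR fell (-3.28). The primed cells of the 2 treatments lie in different clusters: cluster 4 holds 1548 and 1706 of the 1577 and 1757 primed TGFB1 cells, while cluster 10 holds 89 and 159 of the 94 and 165 primed Control cells. In cluster 10 the 51 cells of TGFB1 r2 had SESN3 at 47.1 CPM, above the 22.5 and 23.9 CPM of Control, so SESN3 lay on either side of Control by cluster, and the treatment and the cluster cannot be told apart there.

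The effect of TGFB1 differed between primed and drug-susceptible cells for 3 of the 10 genes in an edgeR interaction fit, all of them lower in primed cells, beside 4.49% of 18502 genes called lower and 5.49% higher. SESN3 differed by -1.55 on the log2 scale (SE 0.212, edgeR adjusted p = 2.78e-11), IRS1 by -0.89 (edgeR adjusted p = 0.00315) and TXNIP by -0.47 (edgeR adjusted p = 0.000733). The labels of state were made from the same counts.

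TGFBRi raised 2 of the 10 genes, beside 1.09% of all genes called higher and 1.45% lower. SESN3 was at 33.3 and 30.1 CPM (log2 fold change 0.31, SE 0.07, edgeR adjusted p = 0.0166) and TXNIP at 45.1 and 44.8 CPM (0.32, SE 0.084, edgeR adjusted p = 0.0472). Both stood above both Control libraries. With 1 of the 4 libraries left out SESN3 kept its call in 2 of 4 fits and TXNIP in 1 of 4, and neither held without Control r1 (edgeR adjusted p = 0.44 and 0.739). Neither passed without the replicate block (0.224 and 0.372) or in G1 cells (0.536 and 0.483), nor TXNIP with DESeq2 (0.0539). In drug-susceptible cells, with 1.22% of genes called higher and 1.59% lower, the same 2 genes were called, with log2 fold changes of 0.30 and 0.33. Both calls were lost there without Control r1 (edgeR adjusted p = 0.443 and 0.696) and without the replicate block (0.199 and 0.321), and that of SESN3 without TGFBRi r1 (0.0516). FOXO1 had 0.46 there with an edgeR adjusted p of 0.0643.

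PI3Ki was also compared directly with TGFB1 and with TGFBRi, within the same fit of all treated libraries. IRS1 (log2 fold change -2.23), FOXO1 (-2.01), PIK3IP1 (-1.50) and TXNIP (-0.65, edgeR adjusted p = 1.11e-06) were lower under PI3Ki than under TGFB1, where 15.3% of genes were called higher and 18.7% lower. Against TGFBRi, with 8.25% higher and 8.77% lower, TXNIP was higher under PI3Ki (0.56), and IRS1 (-0.98), FOXO1 (-0.42), SESN3 (-0.38) and IRS2 (-0.29) were lower. IRS2 was at 34.2 and 35.2 CPM under PI3Ki and at 46.7 and 43.6 CPM under TGFBRi (edgeR adjusted p = 0.00522).

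In untreated WM989 cells the levels were compared between primed and drug-susceptible cells over the 8 chip wells, as values with no test, since the wells come from 1 sample, the study split each culture over 2 chip wells, and the states were clustered from these counts. The wells hold 408 to 3841 cells, 19 of the 12512 cell barcodes occur in more than 1 well, and 4 of them hold 56.9% to 79.7% primed cells and the other 4 hold 6.85% to 9.42%. By the study's methods these cultures were sorted, as mixed cells or as cells high in EGFR and NGFR, and the labels used here do not give the sort of each well. Taking genes with at least 1 CPM in a state, 9.88% of 13194 were over 2-fold higher in primed cells with no overlap of wells, and 6.14% lower. Of the 9 members at or above this level, IRS1 and FOXO1 were higher in this sense, and IRS2 and SESN3 lower. With a floor of 20 CPM, 5 members remain, of which IRS1 and IRS2 were over 2-fold apart. Beside them 10.4% of 6316 genes were over 2-fold higher and 6.55% lower, by the ratio alone. IRS1 meets this floor only in primed cells.

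**Figure D4:**
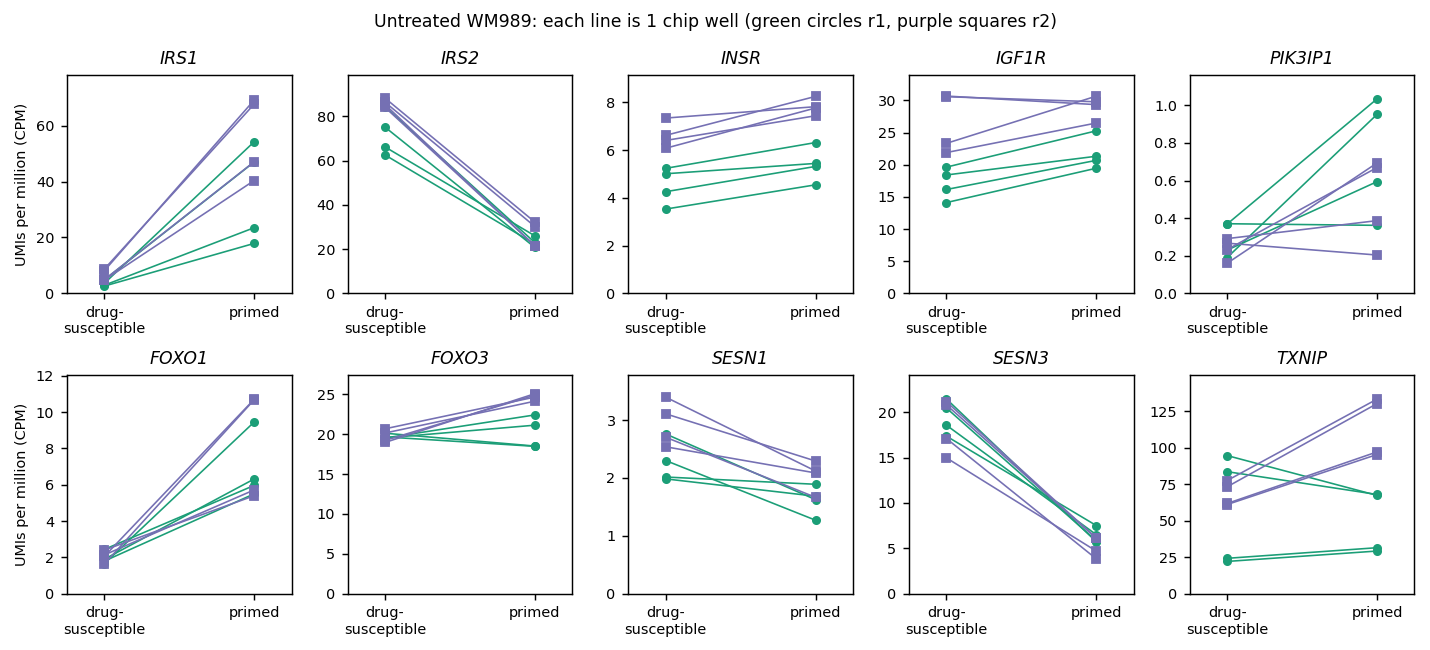
Level of each gene in drug-susceptible and primed cells of each of the 8 untreated WM989 wells, in CPM on linear axes from 0, 1 line a well, with circles for r1 and squares for r2. IRS1 and FOXO1 rise and IRS2 and SESN3 fall from drug-susceptible to primed in 8 of 8 wells, while the lines of TXNIP run both ways.

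IRS1 was at 3.92 CPM over all drug-susceptible cells and at 53.9 CPM over all primed cells, a ratio of 13.7 that pools wells of unlike makeup, or 9.03 with equal weight for each well. By well it lay between 2.63 and 8.74 CPM (median 4.82) in drug-susceptible cells and between 17.9 and 69.1 CPM (median 47.0) in primed cells. No well overlapped. The ratio within a well was 14.9, 9.67, 8.03 and 6.80 in r1 and 7.75, 8.49, 9.54 and 8.43 in r2, so 7 of the 8 wells lay below the pooled ratio. FOXO1 went from 1.88 to 6.32 CPM, the wells lying between 1.64 and 2.44 CPM and between 5.40 and 10.7 CPM. In these wells IRS1 and IRS2, adapters of the same receptors, lay on opposite sides of the 2 states: IRS2 was at 74.4 CPM in drug-susceptible and 22.4 CPM in primed cells, between 62.6 and 88.3 CPM and between 20.8 and 32.2 CPM by well. In Control of the treated experiment IRS1 was again higher in primed cells (23.1 and 22.9 against 3.19 and 4.0 CPM in r1 and r2). IRS2 was lower in primed cells of r1 (26.8 against 40.1 CPM) but higher in those of r2 (50.3 against 45.2 CPM). These primed values rest on 94 and 165 cells and were not tested.

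SESN3 was at 19.2 CPM in drug-susceptible and at 5.32 CPM in primed cells, with wells from 15.0 to 21.4 CPM and from 3.84 to 7.51 CPM. In the Control libraries of the treated experiment (r1 and r2) it was at 24.6 and 27.3 CPM in drug-susceptible cells. Primed cells there had 22.4 and 23.3 CPM, a smaller gap. SESN1 was lower in primed cells in 8 of 8 wells, at a ratio of 0.717, and its wells overlapped. INSR was higher in 8 of 8 wells, with ratios within a well from 1.06 to 1.29, and IGF1R in 6 of 8, with ratios from 0.957 to 1.38, again with overlap. FOXO3 was higher in 6 of 8 wells, with ratios from 0.920 to 1.32. PIK3IP1, on 83 and 140 UMIs, was higher in 6 of 8 with ratios from 0.764 to 4.99, and its pooled ratio of 1.72 was 1.10 in G1 cells. The shares of all genes with such counts of wells were not taken, and the wells are not independent.

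TXNIP varied more between wells than between states in r1, while in r2 the ratio of primed to drug-susceptible cells was 1.56 to 1.78. In r1 the drug-susceptible cells of the 4 wells were at 94.5, 83.5, 24.2 and 22.1 CPM and the primed cells at 67.3, 67.9, 31.5 and 29.2 CPM. In r2 they were at 61.8, 61.03, 77.5 and 73.2 CPM and at 97.0, 95.3, 133 and 130 CPM. Primed cells were higher in 6 of 8 wells, and lower in the first 2 wells of r1, so the pooled ratio of 1.64 does not hold in every well. These 2 wells held 56.9% and 62.4% primed cells. Each culture was split over 2 chip wells, so the 8 wells are not independent values.

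By deposited cluster, IRS1 was at 62.8, 31.6 and 47.3 CPM in clusters 2, 8 and 9 of the first experiment, which the primed label covers, and at most at 8.11 CPM in the others. In the treated experiment it was at 20.2 and 21.1 CPM in the primed clusters, 4 and 10, and at 9.73 CPM in cluster 3, against 1.73 to 4.04 CPM elsewhere. FOXO1 reached 20.4 and 8.05 CPM in the same pair, and SESN3 separated it at 8.28 and 28.2 CPM. These values pool treatments. By library, among those with at least 50 cells in the cluster, TXNIP was at 153 and 158 CPM in cluster 4 (both TGFB1) and ranged from 79.3 to 188 CPM over 6 libraries in cluster 10, so the 2 overlapped.

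WM983B cells, with 731 primed of 1449 cells in 1 library, had no replicate, and no member was over 2-fold apart between the states, against 2.87% of 13769 genes higher and 1.37% lower. TXNIP was nearest to it, at 57.3 CPM (95% Poisson interval 55.3 to 59.4) in drug-susceptible and 111 CPM (108 to 114) in primed cells, a ratio of 1.93. In G1 cells alone its ratio was 2.76, over 2-fold, and the share of all genes was not taken there. IRS1 was at 5.29 and 7.56 CPM, a ratio of 1.43. IRS2 was at 51.3 and 74.1 CPM (ratio 1.44), higher in primed cells where each well of WM989 had it lower, and FOXO1 was at 8.20 and 7.97 CPM. The remaining genes had ratios between 0.849 for SESN1 and 1.21 for IGF1R. The intervals cover counting error only.

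Genes whose level followed each member most closely over the 8 treated libraries were taken from 7840 genes with at least 10 CPM, after removal of the replicate means. IRS1 lay nearest to TMEM158 (r = 0.994), CCN3 and RRAS, and FOXO1 to TUBA1A (r = 0.997), CAV1 and AKAP13. TXNIP lay nearest to KCTD15 (r = 0.986), MBOAT2 and ARMCX3, SESN3 to ARID1A (r = 0.959), DYRK4 and ALDH3A2, and IRS2 to CHEK1 (r = 0.993), RALGPS2 and PCLAF. PIK3IP1 lay nearest to JUNB, ST3GAL2 and TENM3, FOXO3 to YPEL5, HEY1 and TRIOBP, INSR to FAM13B, CCAR1 and LRCH3, IGF1R to VIRMA, OGA and ZBTB21, and SESN1 to EBLN2, ZNF75A and UBXN2A. With 8 libraries in 4 treatments these r values describe shared differences between treatments and the highest of many, and no test was made.

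ATAC-seq peaks, regions of open chromatin, were compared at the gene starts by fold enrichment, the height of the highest peak within 500 bases over the local background. All 10 genes had a peak at the start in all 12 libraries. In Mix, IRS1 ranged from 18.4 to 25.2 and in EGFR_High from 25.9 to 27.4, without overlap. FOXO1 stood above Mix without overlap in EGFR-NGFR-High, at 33.7 to 42.6 against 25.9 to 32.9. In NGFR-High, IRS2 (mean 66.2 against 56.6), INSR (28.5 against 20.9), IGF1R (36.5 against 32.1) and SESN1 (62.3 against 52.8) did so. Among start sites with a peak 4.23% were higher and 11.3% lower without overlap in EGFR_High, 12.4% and 2.81% in EGFR-NGFR-High, and 24.7% and 2.34% in NGFR-High. The share in NGFR-High is large over all start sites, whose median fold enrichment was 35.7 to 38.9 there and 32.5 to 34.8 in Mix. With 3 libraries against 3 the exact two-sided permutation test cannot give a p below 0.1, none of the 30 comparisons passed, 0 had an unadjusted p under 0.05, and the adjusted p was 0.5 or above in each. TXNIP was at 61.8 to 70.2 in Mix and at 51.6 to 69.9 in EGFR-NGFR-High.

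**Figure D5:**
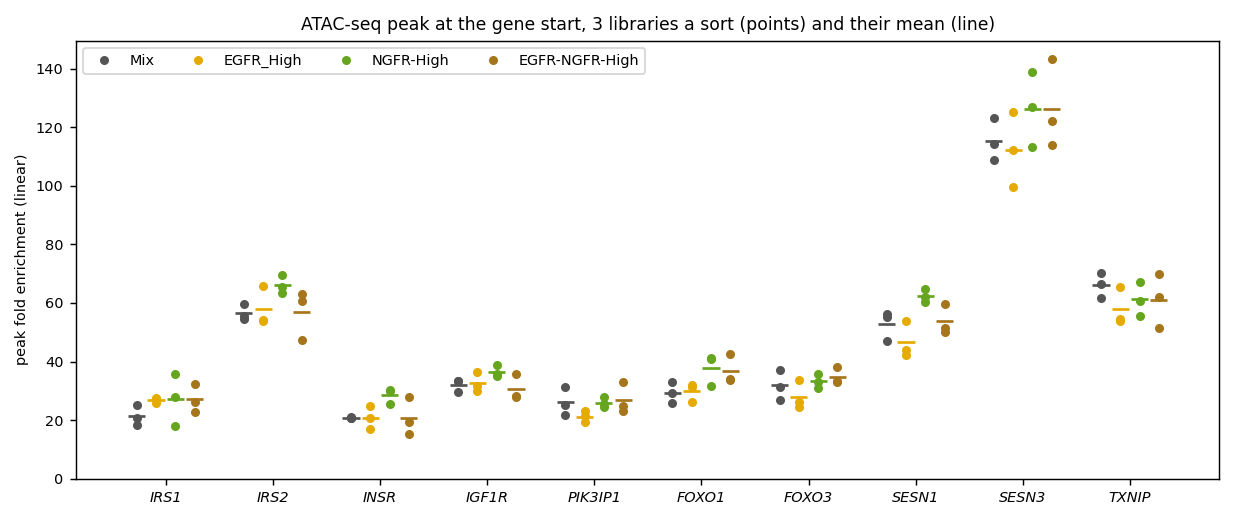
Fold enrichment over local background of the ATAC-seq peak at the start of each gene, on a linear axis from 0, with a point for each of 3 libraries a sort and a line for their mean. SESN3 has the highest values, 108.9 to 123.0 in Mix, and most sorts overlap Mix.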

How the data were processed

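UMI counts per gene and cell were deposited by the authors, made with Cell Ranger on hg38, with the state, cluster, phase, replicate and library of each cell and its percent of mitochondrial reads. ATAC-seq peak lists deposited by the authors were called by MACS2 2.1.1.20160309 in each library, after alignment with Bowtie2 2.3.4.1 and SAMtools 1.1, and hold fold enrichment as a ratio over local background and the −log10 of the q-value as the authors' caller wrote them. No reads were reprocessed. Doublets were not called again here.

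Counts were summed per library, and edgeR 4.0.16 (R 4.3.3) tested the 8 treated libraries (filterByExpr, TMM factors from 0.941 to 1.05, quasi-likelihood, two-sided, terms for treatment and replicate, 3 residual degrees of freedom, Benjamini-Hochberg threshold 0.05). All 8 libraries shared 1 estimate of the spread of each gene, which edgeR moderated towards that of the other genes. DESeq2 1.42.0 was an alternative. Primed cells were tested in libraries with at least 20 of them. The difference r2 minus r1 correlated between all pairs of treatments over genes (Pearson's r from 0.182 to 0.646), so the numbers pair the libraries and replicate was a term of the model. Sample labels call the replicates Mix and Primed, and the cells are labelled r1 or r2. No source used here ties the 2 sets of names together. In simulated data of 18005 genes for PI3Ki against Control, the share of changed genes recovered was 0.6625 at 1.25-fold and 0.982 at 1.5-fold. The changed genes were drawn from those with a mean above 2 CPM, and no difference between r1 and r2 was built in. The shares therefore do not cover genes as low as PIK3IP1 or DEPTOR. Exact Poisson intervals are at 95%.

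Members and gene lists were chosen with earlier results of these data known. The text names all 10 members, and for each member the 3 genes of most similar pattern. Of each list it names at most 4 genes with the largest change past the threshold in PI3Ki against Control. Markers of the primed state, of melanocytic cells and of other cell types are named as checks, beyond that limit and without regard to the threshold. For the untreated states, the 1 CPM floor and the rule of no overlap of wells were set after the levels had been seen, in place of a floor of 20 CPM that left out FOXO1 and SESN3. With that floor and a 2-fold ratio alone, 10.4% of genes were higher and 6.55% lower in WM989, and 1.3% and 0.686% in WM983B. ATAC-seq peaks were tested by exact permutation in SciPy 1.17.1 (Python 3.11.15).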

Additional observations from a re-analysis of the deposited data

Results flagged for a closer look

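The effect of TGFB1 against Control differed between primed and drug-susceptible cells for 3 of the 10 genes, by an edgeR interaction test that called 4.49% of all genes lower and 5.49% higher. The difference, primed minus drug-susceptible, was -1.55 on the log2 scale for SESN3, -0.89 for IRS1 and -0.47 for TXNIP. Primed TGFB1 cells lie mostly in cluster 4 and primed Control cells mostly in cluster 10, so treatment and cluster cannot be told apart in these differences.

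For IRS2 the ratio of primed to drug-susceptible cells in WM983B, 0.53 on the log2 scale, ran against all 8 wells of WM989, in which it was lower in primed cells. In Control of the treated WM989 experiment, IRS2 was lower in primed cells of r1 but higher in those of r2 (50.3 against 45.2 CPM). The r2 value rests on 165 primed cells of 1 library and was not tested, so no direction is read from it. FOXO1 was higher in primed cells in all 8 wells and had a log2 ratio of -0.042 in WM983B. The primed value there was 7.97 CPM beside 8.20 CPM, with counting intervals that overlapped, and in G1 cells the ratio was 1.07, so no direction is read from it. The difference between the lines was not tested, since WM983B is 1 library. Of 40 groups of wells examined for a well that stands apart from the others, none did. Each group mixes pairs of wells rich and poor in primed cells. Where these pairs differ, 1 well can hardly stand apart, so nothing is read from this.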

How the results depend on the processing

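The calls of TXNIP (higher) and IRS1 (lower) under PI3Ki kept their direction and side of the threshold in all alternatives tried, over all and over drug-susceptible cells, and no called value turned its sign. Values without a call turned their sign in some alternatives in several comparisons, under PI3Ki over all cells those of SESN3, FOXO1, IGF1R and PIK3IP1. The counts over all genes moved more. For PI3Ki over all cells, 2328 genes were called in the main fit, 649 without the replicate block, 3523 with library size only, 4193 with only the 2 treatments, and 719 to 1302 with a library left out. With library size only, 560 were higher and 2963 lower, 15.9% higher, beside 1072 and 1256 (46.0%) in the main fit. TGFB1 over all cells gave 5324, and 3164 to 4161 with a library left out. TGFBRi over all cells gave 466, then 40 without the replicate block, 748 with no filter on low counts, 148 in G1 cells and 168 to 1146 with a library left out; its 2 members became 1 with DESeq2, 0 without the replicate block, 0 in G1 cells, and 0 to 2 with a library left out. In drug-susceptible cells PI3Ki gave 2170, 570 without the replicate block and 632 to 1237 with a library left out, and TGFB1 2665, 1189 and 988 to 2098, with 6 members falling to 3 to 4 when a library was left out. TGFBRi gave 503, 326 with DESeq2, 47 without the replicate block and 206 to 1247 with a library left out, with 2 members falling to 0 without the block and to 0 to 2. In WM983B, 1 member (TXNIP) was over 2-fold in G1 cells beside 0 in the main count. The cause of these moves was not tested. Among values of the members in the alternatives, 441 stayed on the same side of the threshold, with or without a call, 28 lost a call and 7 gained one. In ATAC-seq the smallest p of the design, 0.1, allows no call under any alternative.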
